A study of Mus musculus with 4 samples.

Results

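The enzymes that make and use glutathione, remove peroxides and superoxide, and oxidise aldehydes and foreign compounds were described in the CA1 field of the mouse hippocampus. Members were the probe sets with 1 gene symbol in the platform annotation whose symbol begins as a glutathione S-transferase, glutathione peroxidase, peroxiredoxin, superoxide dismutase, thioredoxin-related gene, haem oxygenase, quinone reductase, aldehyde dehydrogenase or cytochrome P450 of families 1 to 4 (numbers that begin with these digits included), or is catalase, glutathione reductase or glutamate-cysteine ligase. Aldh1l1 was left out. The rule used gene names and no measured value, and it gave 120 probe sets for 92 genes, of 12488 probe sets in all. The mice were young C57BL/6J males whose only treatment was handling. Their CA1 RNA was extracted 1, 2, 4 or 6 hr after other, experimental mice had their last shock, and each time is represented by 1 array. How many mice were pooled is not known from the labels, and no shocked mice are part of the comparison. The 4 arrays differ in time and have no replicate at any time, so an SD over them (n = 4) describes these arrays and is not a replicate error.

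As background, superoxide dismutases turn superoxide into hydrogen peroxide, and catalase, glutathione peroxidases and peroxiredoxins remove that peroxide. Glutathione peroxidases take their electrons from glutathione and most peroxiredoxins take them from thioredoxin, and reductases that use NADPH restore both. Glutathione S-transferases, aldehyde dehydrogenases and cytochromes P450 act on foreign compounds, lipid products and hormones, and many of the P450 enzymes are known chiefly from liver. In brain much of the glutathione system is known from astrocytes, while peroxiredoxin 2 is known from neurons. In a bulk sample, fewer cells of a type cannot be told apart from less RNA per cell.

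Median intensity lay between 173 and 204 on the 4 arrays, lowest at 2 hr, where the median log2 value was -0.17 away from the mean of the 4 medians, and the 2 hr array also had the highest 3' to 5' ratio of the Gapdh control (7.56, against 4.84 to 6.25 on the others). The ratio of the Actb control did not single that array out (3.20, within 2.99 to 3.44). Of 10 probe sets for markers of CA1 pyramidal neurons, 8 passed the filter on mean level described next. Nrgn, a postsynaptic calmodulin-binding protein, read 4173, 1884, 3348 and 5709 at 1, 2, 4 and 6 hr. Wfs1, an endoplasmic reticulum protein marking CA1, read 1753, 2594, 2574 and 1668. Camk2a, a defining kinase of these neurons, passed on 1 probe set at 53.2 to 161, with its 6 hr reading below the floor. Its mean log2 value, 6.87, was close to the filter at 6.83. The other Camk2a probe set was below the floor on each array. It did not pass, and neither did a Lefty1 probe set at 24.4 to 107.

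Enzymes known from brain were above the filter on nearly every probe set, and those of the liver type mostly were not. A floor was placed at 54.7, the 25th percentile of intensities, and lower readings took that value. A probe set passed the filter when its mean log2 value was above the 40th percentile of all non-control probe sets. Of the members, 73 of 120 probe sets (60.8%) passed, for 60 of 92 genes, beside 60% of all 12422 non-control probe sets, a share that the threshold itself fixes. In a list of brain-expressed enzymes 34 of 36 probe sets passed (94.4%), and all 24 genes had at least 1 that did. In a list of liver-type enzymes 9 of 26 probe sets passed (34.6%), for 9 of 25 genes. A probe set below the floor on all 4 arrays was seen for 1 of 36 in the brain-expressed list and 7 of 26 in the liver-type list, beside 11.5% of all probe sets. The lists were written from gene identity, with earlier results of these data known, and no detection calls were used, so a probe set that passed need not be above background. Intensities of different probe sets depend on their oligonucleotides and were not read as RNA levels of one gene against another. Among members close to the threshold, Cyp2s1 at percentile 40.2 and Cyp2d9 at 40.6 lay inside, and Cyp3a13 at 39.9 lay outside. A Cat probe set of the brain-expressed list, at 40.8 with its 4 hr reading below the floor, also lay just inside. Of the brain list, Prdx1, Prdx5, Prdx6, Aldh5a1, Aldh6a1 and Cyp46a1 were not analysed here. The liver-type list named 39 genes, of which 25 were analysed. No liver was measured, so the names of the lists rest on prior knowledge and not every gene need fit its list.

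**Figure D1:**
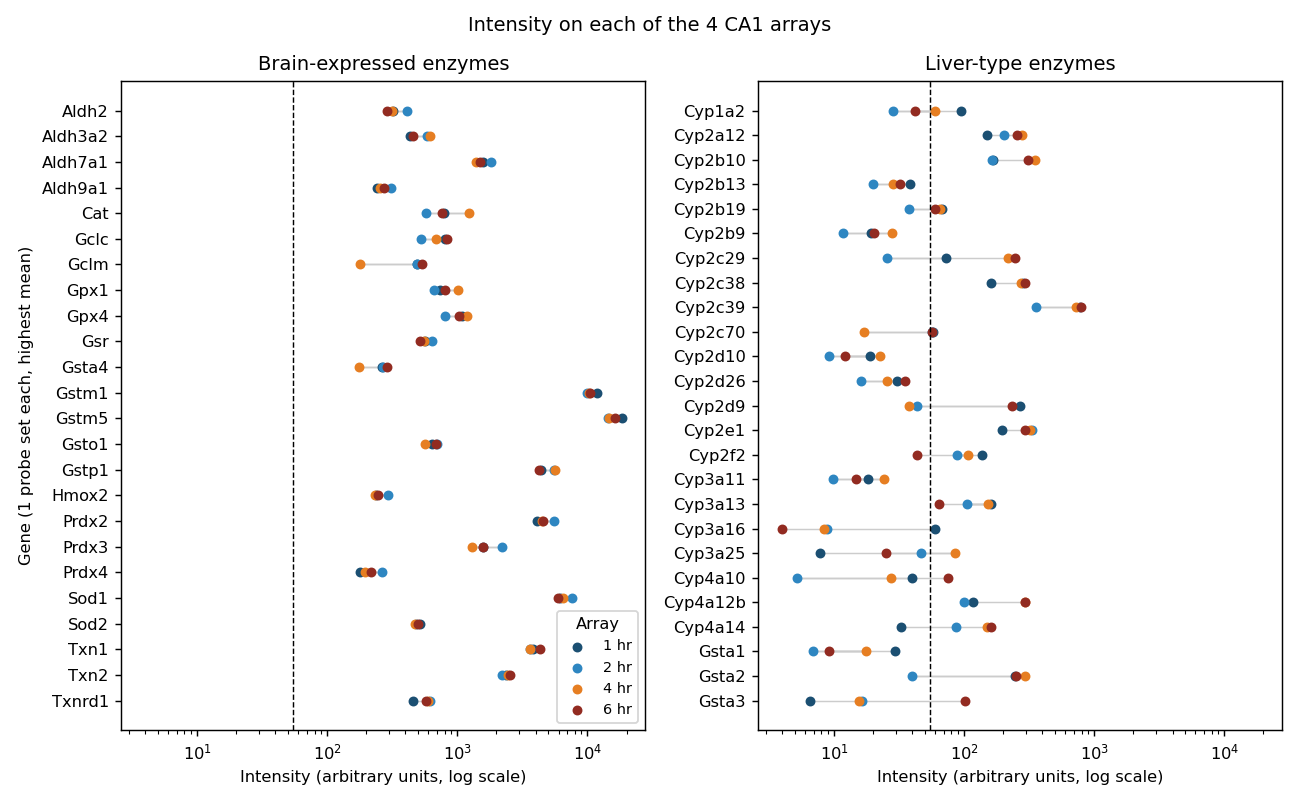
Intensity (log axis, arbitrary units) of the probe set of highest mean for each gene of the brain-expressed list (left) and the liver-type list (right), with 1 point for each of the 4 arrays and a dashed line at the floor of 54.7. Each brain-expressed gene lies above the floor on all 4 arrays, and most liver-type genes have points below it.

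**Figure D2:**
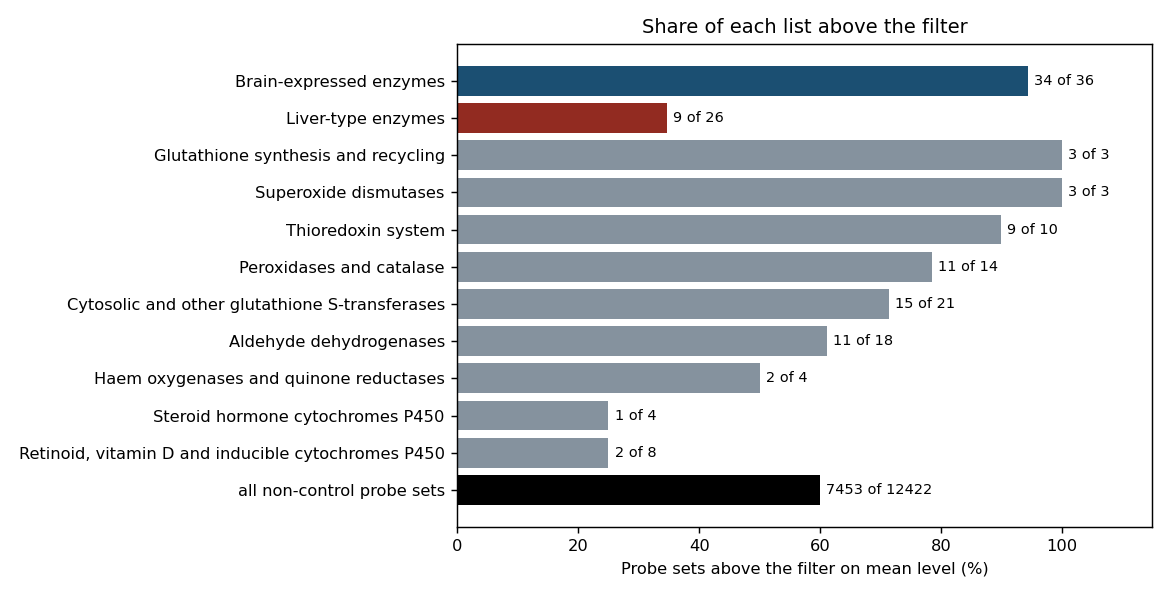
Percentage of probe sets above the filter on mean level in each list, with counts beside the bars, and all non-control probe sets at the bottom. The bars run from 25% for both lists of hormone, vitamin and inducible cytochromes P450 to 100% for glutathione synthesis and superoxide dismutases, and the brain-expressed list reaches 94.4% against 34.6% for the liver-type list.

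Glutathione S-transferases join glutathione to reactive compounds, and 15 of their 21 probe sets passed. Gstm5, a mu-class enzyme, read 18348, 14517, 14657 and 16340.3 at 1, 2, 4 and 6 hr on its probe set of highest mean, 1.26-fold from lowest to highest. Gstm1, the other prominent mu-class enzyme, read 11791, 9886, 10359 and 10411, 1.19-fold across the arrays. Both probe sets carry the f suffix, which marks oligonucleotides shared by a gene family, so signal from one mu-class gene on the probe set of another cannot be told apart. Gstm3 read 1516, 1418, 1362 and 1639 on a probe set with the same suffix. Gstp1, the pi-class enzyme, read 4403, 5497, 5614 and 4253, higher at 2 and 4 hr than at 1 and 6 hr. Gsto1, an omega-class enzyme with thiol transferase activity, read 638, 701, 565 and 683, and the 4 arrays lay within 1.24-fold. Gsta4, which acts on the lipid peroxidation product 4-hydroxynonenal, read 266, 269.7, 174 and 289, lowest at 4 hr. Gstz1, an enzyme of tyrosine breakdown, averaged 582 ± 84.8, and Gstt1, of the theta class, ranged from 65.4 at 4 hr to 263 at 6 hr. Gsta1, Gsta3, Gstt2, both Gstm6 probe sets and one of Gstm2 did not pass.

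Genes of glutathione synthesis and recycling passed on all 3 probe sets. Gclc, the catalytic subunit of the enzyme that starts glutathione synthesis, read 798, 529, 684 and 834, lowest at 2 hr. Gclm, its modifier subunit, read 488, 490.1, 179 and 533. The 4 hr array stood apart, and the other 3 lay between 488 and 533. Gsr, which reduces oxidised glutathione, read 562, 641, 558 and 513 and varied 1.25-fold.

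Among peroxidases and catalase 11 of 14 probe sets passed. Prdx2, the cytosolic peroxiredoxin, read 4132, 5506, 4457 and 4542 on one probe set and 1927, 1888, 1620.4 and 2269 on a second. The remaining Prdx2 probe set read 20.9, 2.9, 6.1 and 22.4, below the floor on all 4 arrays, so the gene's readings depended on the probe set. Prdx3, the mitochondrial peroxiredoxin, read 1576, 2195, 1308 and 1589, highest at 2 hr. Prdx4, of the endoplasmic reticulum, read 179, 265, 194 and 217, also highest at 2 hr. Gpx4, which reduces lipid hydroperoxides in membranes, read 1094, 809.6, 1180.3 and 1037, and Gpx1, the cytosolic selenium enzyme, read 731, 664, 1018 and 809. Both were lowest at 2 hr and highest at 4 hr. Secreted Gpx3 averaged 362 ± 58.2 and Gpx2, known from gut, 296 ± 83.7 (SD, n = 4). Gpx5, known from epididymis, passed on one probe set (106 to 178) and not on the other (45.8 to 114), and Gpx7 did not pass. Cat, the peroxisomal catalase, read 791, 578, 1233 and 769.8 on a probe set with the f suffix, highest at 4 hr. Its second probe set read 144, 180.2, 50.7 and 136, lowest at 4 hr and there below the floor.

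All 3 superoxide dismutases passed. Sod1, the cytosolic copper and zinc enzyme, read 6135, 7658, 6447 and 5906, highest at 2 hr. Sod2, the mitochondrial manganese enzyme, read 518, 478, 475 and 499 and varied 1.09-fold, the smallest ratio of highest to lowest among the 73 member probe sets that passed. Sod3, the secreted enzyme, read 666, 248, 616 and 393, 2.69-fold between 2 hr and 1 hr.

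The thioredoxin system passed on 9 of 10 probe sets. Txn1, the cytosolic thioredoxin, read 3828, 3638, 3594 and 4345, and Txn2, the mitochondrial one, read 2389, 2214, 2447 and 2565. They varied 1.21-fold and 1.16-fold over the arrays. Txnrd1, the cytosolic reductase, read 461, 614, 591 and 578, lowest at 1 hr, and Txnrd2, the mitochondrial one, averaged 224 ± 55.8 (SD, n = 4). Txnl4a, a spliceosome protein of thioredoxin fold, read 2379, 1480.3, 2061 and 1970.0, and Txnl1, a proteasome-associated one, read 1191, 596, 579.7 and 1040.4. Txnl1 split into 1 and 6 hr, which were high, and 2 and 4 hr, which were low. Txnrd3, a reductase with a glutaredoxin domain known from testis, read 1223, 1384, 1618 and 1812 on one probe set and 59.4, 32.4, 118 and 36.8 on the other, which did not pass. Both carry the r suffix, which marks a probe set chosen under relaxed design rules. Txnip, the protein that binds and inhibits thioredoxin, read 452, 271, 185 and 140.5 on one probe set. Its other probe set read 471, 159, 252 and 304, and both were highest at 1 hr. The thioredoxin domain proteins Txndc5, Txndc9, Txndc12, Txndc16 and Txndc17 each had 1 probe set and each passed. Of these Txndc16 averaged 1252 ± 60.8 and varied 1.11-fold, and Txndc9 varied 1.90-fold with its lowest value, 325, at 4 hr.

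Haem oxygenases break down haem to biliverdin, carbon monoxide and iron, and both passed. Hmox1, the inducible form, read 845, 702, 784 and 775, and Hmox2, the constitutive form known from neurons, read 237, 296, 231 and 244. Their values varied 1.20-fold and 1.28-fold. Nqo1, a quinone reductase and classical target of the factor Nrf2, did not pass on either probe set, at 73.6 to 173 on one and 28.7 to 107 on the other.

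Aldehyde dehydrogenases passed on 11 of 18 probe sets. Aldh7a1, an enzyme of lysine breakdown, read 1586, 1803, 1398 and 1508 on one probe set and 886, 1014, 754 and 1058 on another, with both lowest at 4 hr. The remaining Aldh7a1 probe set read 7.7, 18.0, 29.5 and 60.2 and did not pass. Aldh1a1, which makes retinoic acid, read 967, 1108, 1400.0 and 1265 on one probe set. On the other it read 121, 128, 129.7 and 155, and both were lowest at 1 hr. Aldh2, the mitochondrial acetaldehyde enzyme, read 323, 412, 313 and 286 on its probe set of highest mean. A second read 146, 326, 308 and 312, with 1 hr at least 2-fold below each other array. The last read 192, 114, 182 and 168, lowest at 2 hr, and neither the first nor the last had such a gap at 1 hr. Aldh3a2, which oxidises fatty aldehydes, read 437, 583, 616 and 458 on one probe set. On the other, with the f suffix, it read 133, 198, 145 and 116, lowest at 6 hr. Aldh9a1, an enzyme of carnitine and GABA synthesis from aldehydes, read 243, 307, 253 and 274. Aldh3a1, known from cornea, read 136, 30.1, 272 and 212 on the probe set that passed, and was below the floor on all 4 arrays on the other. Aldh1a2, Aldh1a3, Aldh1a7 and Aldh18a1 did not pass.

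Of 42 probe sets for cytochromes P450, 14 passed (33.3%), and 11 were below the floor on all 4 arrays. Cyp1a2, the main family 1 enzyme of liver, read 94.2, 28.3, 59.4 and 42.0 and did not pass. Both Cyp2d10 probe sets, and those of Cyp2d26, Cyp3a11, Cyp2b9, Cyp2b13 and Gsta1, were below the floor on every array. The 9 liver-type probe sets that passed were 8 cytochromes P450 and Gsta2. Cyp2c39 read 784, 359.6, 722 and 798, lowest at 2 hr. Cyp2c29 read 72.1, 25.4, 218 and 248, low at 1 and 2 hr and high at 4 and 6 hr, and Cyp4a12b, a fatty acid hydroxylase, divided the same way at 118, 100.1, 294 and 292. Cyp2b10, a drug-inducible enzyme, read 166, 164, 349 and 309, again higher at 4 and 6 hr. Cyp2a12 read 150.3, 201, 279.9 and 255, and Cyp2c38, on a probe set with the f suffix, read 159.7, 283, 273 and 296. Cyp2e1, which oxidises ethanol, read 195, 332, 321 and 294, lowest at 1 hr. Cyp2d9, a testosterone hydroxylase, read 269.8, 43.4, 37.8 and 232, with 2 and 4 hr below the floor. Gsta2 read 247, 39.8, 295 and 251, with 2 hr below the floor. Markers of hepatocytes passed on 4 of 17 probe sets. Rbp4 passed and read 672, 403, 364.5 and 273 at 1, 2, 4 and 6 hr. Cps1 passed at 259, 206, 279 and 222, and Apoa2 on 1 probe set at 149.5, 73.0, 178 and 99.9. Ttr, whose values are given below, was the other that passed. Alb, the serum albumin gene, was below the floor at 2 and 6 hr and read 224 at 1 hr, and Fgb, Apoa1, Ahsg, Apoh and Serpinc1 were below the floor on every array.

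Cytochromes P450 of hormone and vitamin metabolism were mostly below the filter. Cyp21a1, the adrenal steroid 21-hydroxylase, was the single probe set of 4 for steroid hormone enzymes that passed, and read 908, 798, 1111 and 911 on a probe set with the s suffix, which marks oligonucleotides shared between sequences. Cyp11a1 and both Cyp17a1 probe sets, for earlier steps of steroid synthesis, did not pass. Of 8 probe sets for retinoid, vitamin D and inducible enzymes 2 passed. Cyp27b1, which activates vitamin D, read 323, 124, 78.7 and 305, high at 1 and 6 hr and low at 2 and 4 hr. Cyp1a1, a target of the aryl hydrocarbon receptor, read 168, 102, 83.5 and 143 on one probe set and did not pass on the other. Among P450 enzymes in no list, Cyp4v3, a fatty acid hydroxylase, read 475, 249.5, 235 and 224, with 1 hr above the other 3. Cyp4b1 read 619, 384, 589 and 248 on a probe set with the f suffix. Cyp2s1 read 144, 145, 19.5 and 154, with 4 hr below the floor.

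No member passed the test of a straight line over the hours. After Benjamini-Hochberg adjustment limma called 0 of 73 member probe sets (smallest adjusted p = 0.884) and 0% of the 7453 probe sets tested. At an unadjusted p under 0.05 there were 4 members, 3 higher and 1 lower with time, where 5.13% of all probe sets fell under that value, 2.87% higher and 2.25% lower. The member with the smallest p was Txnip on its probe set with the s suffix. The log2 values of that probe set fell by 0.32 ± 0.07 per hr (SE, by limma, unadjusted p = 0.00636). Its 4 values were in falling order of time. The second Txnip probe set had a slope of -0.03 ± 0.14 and was lowest at 2 hr. The 3 with a positive slope were liver-type enzymes, Cyp2c29 at 0.45 ± 0.11, Cyp4a12b at 0.33 ± 0.10 and Cyp2b10 at 0.22 ± 0.08 log2 units per hr (SE). The Cyp2c29 slope rests on a floored value at 2 hr. Of the others with the smallest p, Cyp2a12 had a slope of 0.15 ± 0.07 and Txnrd3 of 0.11 ± 0.06, and the latest value of Txnrd3 was its highest. In the other direction the slopes were -0.18 ± 0.09 for Cyp4v3, -0.19 ± 0.11 for Cyp4b1, -0.25 ± 0.19 for a Gstm5 probe set and -0.08 ± 0.08 for an Aldh3a2 probe set. Without the 6 hr array the slope of Cyp4b1 was 0.024 and that of this Aldh3a2 probe set 0.0048, so both signs rest on 1 array. Without the 1 hr array the slope of Cyp4v3 was -0.040, that of the Gstm5 probe set -0.56, that of Aldh3a2 -0.19 and that of Cyp2a12 0.085. Without the 2 hr array that of Aldh3a2 was -0.034. Without the 6 hr array it was -0.30 for Cyp4v3, 0.29 for Cyp2a12 and 0.39 for Cyp2b10. With the floor at the 40th percentile the Cyp2c29 slope was 0.23.

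Slopes of the 2 lists differed in sign counts. In the brain-expressed list 14 of 34 slopes were above 0, and in the liver-type list 9 of 9, beside 50.9% of all probe sets tested and 53.6% of those between the 40th and 60th percentile of mean level, where 8 of the 9 lay. None of the 9 passed the test after adjustment. The filter on mean level bears on this count. Cyp2c29 was low at 1 and 2 hr and no longer passed without the 4 hr or without the 6 hr array. Cyp2d9, at percentile 40.6, was below the floor at 2 and 4 hr and passed through its 1 and 6 hr readings. Nothing is therefore read from the 9. Without the 1 hr or the 2 hr array the count was 8 of 9, over the probe sets that passed then, which need not be the same 9. With no filter the count was 13 of 26. Among the 17 liver-type probe sets below the filter, 4 slopes were above 0, 7 were exactly 0 and 6 were below 0. Of the 4 hepatocyte marker probe sets that passed, 1 slope was above 0. That one was Ttr, shared with choroid plexus, which read 140.3, 140.3, 3217 and 196. The summed intensity of the other 16 hepatocyte probe sets, whether they passed or not, was 2193, 1079, 1495 and 1126 over the same times. With Ttr it was 2333, 1219, 4712 and 1322. For the whole liver-type list the sum was 2995, 2114, 3636 and 3754, and for the 9 that passed it was 2161, 1548, 2788 and 2973. The sets were not filtered alike, so nothing is read from these sums. Leaving out Ttr was chosen after its values were seen.

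A few members stood apart on 1 array, meaning at least 1 log2 unit (2-fold) from each of the other 3. On this criterion 1 of 73 was above (1.36% of all probe sets tested) and 7 were below (6.37% of all), and 7.53% of all did either. The one above was a Gstm5 probe set at 2 hr, which read 139, 496, 107 and 106. Its r suffix marks a probe set chosen under relaxed design rules, and none of the other 3 Gstm5 probe sets stood apart at 2 hr. Those below were Aldh2 at 1 hr, Aldh3a1, Cyp2c39 and Gsta2 at 2 hr, and Cat, Cyp2s1 and Gclm at 4 hr, each on the probe set described above. The background for standing below was 1.88% on the 1 hr array, 1.88% on the 2 hr array, 1.18% on the 4 hr array and 1.44% on the 6 hr array, and none of the 7 was low at 6 hr. With 1 array left out, so that fewer arrays had to be exceeded, the members above numbered 4 without 1 hr, 2 without 2 hr, 3 without 4 hr and 5 without 6 hr, beside 2.51%, 2.46%, 3.1% and 2.86% of all probe sets tested. Aldh2 and Cat had other probe sets that did not share the low value.

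By the readings before flooring, the 2 hr array held the lowest value for 29 of 73 members (39.7%), beside 29% of all probe sets tested. It held the highest value for 18 of 73 members (24.7%), beside 24.4% of all. With arrays shifted to a common median, 2 hr was lowest for 19.2% of members and 15.8% of all. The shift raises the 2 hr array, which by itself lowers that share, so nothing is read from the change. The 2 hr array was then highest for 38.4% of members and 45% of all. The part of the higher Gapdh ratio was not tested. In the brain-expressed list 2 hr was lowest for 9 of 34 and highest for 16 of 34, and 4 and 23 of 34 after the shift. In the liver-type list it was lowest for 5 of 9 and highest for 1 of 9, and 3 and 2 of 9 after the shift.

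Probe sets of one gene shared their highest or their lowest array about as often as in the whole table. In most genes, among members and in the whole table alike, they did not share it. Slopes shared a sign less often than in the whole table, but 10 genes are too few to read a difference from. Of the 92 genes, 23 had 2 or more probe sets. Both or all passed for 8 of them, some passed for 7 and none passed for 8. In 10 genes at least 2 passed, and the 2 of highest mean were compared. The same array was highest in 3 of 10 (30.6% of 903 such genes in the whole table), the same array was lowest in 3 of 10 (30%), and the slopes had 1 sign in 4 of 10 (51.9%). Gstm1 agreed at both ends: its second probe set read 578, 504, 542 and 538, highest at 1 hr and lowest at 2 hr as on the first. Cat was at the opposite end, with 4 hr highest on one probe set and lowest on the other. Gstm3 read 697, 243, 823 and 254 on its second probe set, which has the r suffix. That was a 3.39-fold spread, while the first varied 1.20-fold. Gstm5 read 2584, 2673, 2160.1 and 2525 on a second and 264, 107, 99.6 and 179 on another probe set, and these were highest on different arrays. For Gstm2, the probe set that passed read 313, 224, 579.8 and 372, and the one that did not read 97.6, 82.2, 105 and 104, within 1.28-fold. With 4 arrays no correlation between probe sets was computed.

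**Figure D3:**
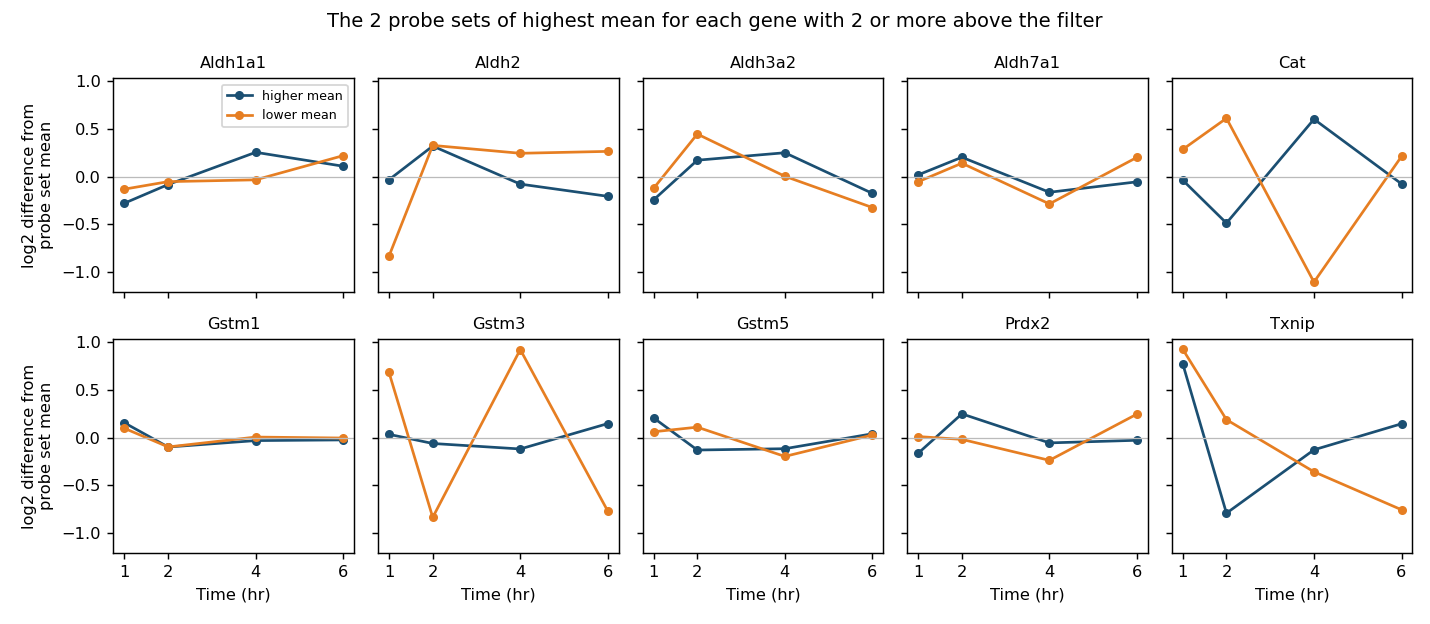
Difference of log2 intensity from the probe set's own mean over the 4 arrays (vertical axis) by time (horizontal axis, hr), for the 2 probe sets of highest mean in each of 10 genes. The lines of Gstm1 lie together, those of Cat cross with opposite values at 4 hr, and those of Gstm3 differ in range, 1.20-fold against 3.39-fold.

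Spread over the arrays was smaller for brain-expressed enzymes than for the liver-type enzymes that passed. The median SD of log2 intensity was 0.21 in the brain-expressed list and 0.58 in the liver-type list, beside 0.30 for all members and 0.29 for all probe sets tested. Spread falls with mean level on these arrays, so the lists were also set side by side within a range of level. Between the 40th and 60th percentile the median SD was 0.34 for 10 brain-expressed probe sets, 0.71 for 8 liver-type probe sets and 0.48 for all 2484. In that range Cyp2c29 (SD 1.10), Cyp2d9 (1.27) and Gsta2 (1.14) had readings below the floor and passed through their higher arrays. So did a Cat probe set (0.76) of the brain-expressed list. The other liver-type values were 0.35 for Cyp2e1, 0.40 for Cyp2a12, 0.42 for Cyp2c38, 0.58 for Cyp2b10 and 0.83 for Cyp4a12b. The filter thus bears on this difference, and nothing is read from it. Above the 80th percentile the median SD was 0.18 for 15 brain-expressed probe sets and 0.19 for all 2485, and no liver-type probe set lay there.

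**Figure D4:**
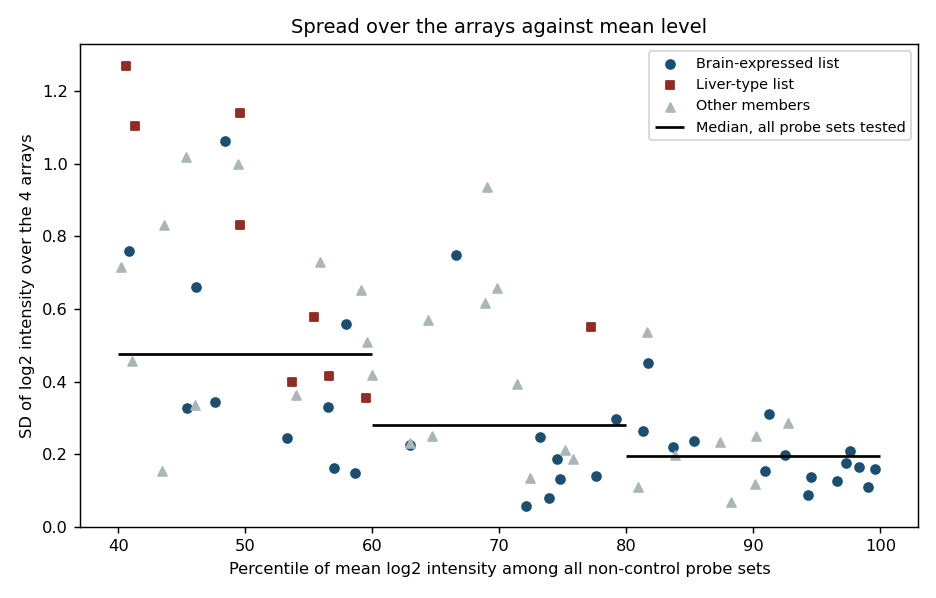
SD of log2 intensity over the 4 arrays (vertical axis) against the percentile of mean log2 intensity (horizontal axis) for the 73 member probe sets that passed the filter, with black lines at the median of all probe sets tested in each range of level. Liver-type probe sets lie at 0.35 to 1.27 and all but 1 of them below the 60th percentile, and brain-expressed probe sets reach the top of the range of level.

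Promoter sequence, which the arrays did not measure, was described for both lists. RefSeq windows (GRCm38.p6) of the 250 bases before the most upstream annotated start were matched for 74 of 92 genes. The median number of CG dinucleotides was 13 in 19 brain-expressed genes and 1 in 22 liver-type genes, beside 10 in 17491 protein-coding genes, and the liver-type genes did not exceed 4. Median GC content was 58.8% in the brain-expressed genes and 46.2% in the liver-type genes, beside 55.2% in all. The motif TATAAA, searched on both strands, was present in 3 of 19 brain-expressed genes and 12 of 22 liver-type genes, and in 12.4% of all windows. Within the last 40 bases it was in 1 of 19 and 9 of 22, and in 3.78% of all. Those of the liver-type list included Cyp2c29, Cyp2c38 and Cyp2c70 on chromosome 19, where Cyp2c39 lacked it, and Cyp2d9, Cyp2d10 and Cyp2d26 on chromosome 15. Genes of a subfamily are related in sequence, so these counts and the CG counts are not of independent genes. The antioxidant response element core TGACNNNGC, the site known for Nrf2, was found on either strand in 4 of 19 brain-expressed genes, 1 of 22 liver-type genes and 10.5% of all windows. A match is only a run of letters, and no binding was measured.

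**Figure D5:**
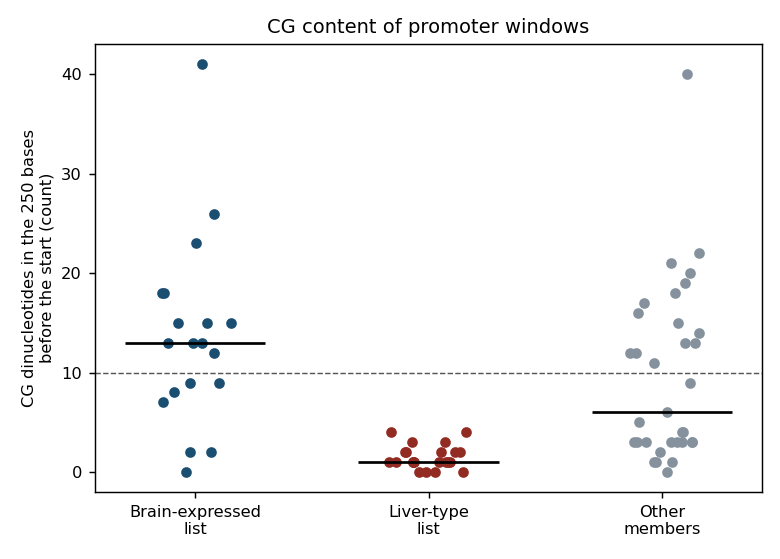
Number of CG dinucleotides (vertical axis, count) in the 250 bases before the start for each gene of the brain-expressed list, the liver-type list and the other members, with bars at the medians and a dashed line at the median of all protein-coding genes, 10. Liver-type genes lie between 0 and 4, and brain-expressed genes between 0 and 41.

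The windows of 6 genes that hold a motif are given as examples, in the 5′ to 3′ direction of the gene. They do not stand for their lists, in which 4 of 19 brain-expressed genes held TGACNNNGC and 12 of 22 liver-type genes held TATAAA. Matches to TGACNNNGC or TATAAA are in capitals on whichever strand they were found. Gstm5, Gclm and Sod1 are brain-expressed genes that hold the first motif, and Cyp2c29, Cyp2e1 and Cyp1a2 are liver-type genes that hold the second. Gstm5 lies at chr3:107895604-107895853 (plus strand), where the match begins 42 bases before the start, and Gclm at chr3:122245307-122245556 (plus strand), where it is read on the opposite strand. Sod1, at chr16:90220512-90220761 (plus strand), holds both motifs without overlap. Cyp2c29 lies at chr19:39286835-39287084 (plus strand), Cyp2e1 at chr7:140763569-140763818 (plus strand) and Cyp1a2 at chr9:57683656-57683905 (minus strand), and their TATAAA begins 19, 31 and 29 bases before the start.
Gstm5: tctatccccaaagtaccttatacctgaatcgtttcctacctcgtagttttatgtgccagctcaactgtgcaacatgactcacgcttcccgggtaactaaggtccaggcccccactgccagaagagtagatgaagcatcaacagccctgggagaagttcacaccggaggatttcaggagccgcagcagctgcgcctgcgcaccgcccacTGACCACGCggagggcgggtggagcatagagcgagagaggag
Gclm: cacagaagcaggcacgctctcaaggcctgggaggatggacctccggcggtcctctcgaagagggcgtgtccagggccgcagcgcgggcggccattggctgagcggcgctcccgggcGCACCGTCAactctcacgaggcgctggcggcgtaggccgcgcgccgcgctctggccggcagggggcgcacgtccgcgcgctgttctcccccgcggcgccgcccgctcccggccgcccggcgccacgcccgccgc
Sod1: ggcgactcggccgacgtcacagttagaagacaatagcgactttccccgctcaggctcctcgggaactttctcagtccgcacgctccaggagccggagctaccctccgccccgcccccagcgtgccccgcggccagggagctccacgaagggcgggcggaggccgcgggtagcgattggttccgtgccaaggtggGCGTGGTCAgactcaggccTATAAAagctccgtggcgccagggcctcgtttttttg
Cyp2c29: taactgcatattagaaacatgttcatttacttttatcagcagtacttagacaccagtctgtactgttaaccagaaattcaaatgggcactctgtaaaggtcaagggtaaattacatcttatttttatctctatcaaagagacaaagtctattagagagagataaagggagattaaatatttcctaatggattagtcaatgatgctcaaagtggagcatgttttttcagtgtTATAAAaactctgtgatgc
Cyp2e1: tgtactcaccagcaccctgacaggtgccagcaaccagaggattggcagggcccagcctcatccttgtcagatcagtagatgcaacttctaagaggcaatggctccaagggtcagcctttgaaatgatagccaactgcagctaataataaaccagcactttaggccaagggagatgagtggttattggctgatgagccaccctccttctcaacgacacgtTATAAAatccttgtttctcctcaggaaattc
Cyp1a2: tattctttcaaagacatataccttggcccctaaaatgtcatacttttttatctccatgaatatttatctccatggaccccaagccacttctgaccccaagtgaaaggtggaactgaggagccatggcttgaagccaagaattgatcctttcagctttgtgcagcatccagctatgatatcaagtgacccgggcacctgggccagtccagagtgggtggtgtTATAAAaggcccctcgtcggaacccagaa

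In these windows the Gclm sequence holds 41 CG dinucleotides and that of Cyp2c29 none. Both kinds of gene passed the filter: Cyp2c29 and Cyp2e1 passed with the TATAAA motif and few CG dinucleotides, and Cyp1a2 did not pass.

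Regulators and partners of these enzymes were measured by 37 probe sets for 26 genes, of which 23 probe sets passed. None passed limma's test after adjustment (0 in either direction), and at an unadjusted p under 0.05 there was 1 of 23 higher and 0 lower with time. Of all probe sets tested, 2.87% were higher and 2.25% lower at that p, so nothing is read from this count. The one higher was Nr1i3, the constitutive androstane receptor, known from liver, on its probe set of lowest mean, at 108, 119.8, 340.2 and 256. A second Nr1i3 probe set read 501, 198, 372 and 371 and the last read 559, 333, 440.3 and 525. Both were lowest at 2 hr, with slopes of 0.01 and 0.03 log2 units per hr. Gss, which completes glutathione synthesis, read 173, 442, 448 and 452, with 1 hr at least 2-fold below the others, and its second probe set read 252, 80.2, 259.6 and 98.9, low at 2 and 6 hr. Blvra, the biliverdin reductase that acts after haem oxygenase, read 206, 188, 267 and 304. Mafk, a small Maf partner of Nrf2, read 158, 406, 221 and 431. Mafg, another, read 548, 569, 657 and 719.5 on one probe set and 218, 86.7, 234 and 168 on the other. Nfe2l2, which encodes Nrf2, read 402, 428, 344 and 417, and its inhibitor Keap1 read 83.5, 37.2, 71.7 and 42.7 and did not pass. The last pair was named after the values were seen.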

How the data were processed

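Gene expression in CA1 was measured on 4 single-channel arrays, 1 each at 1, 2, 4 and 6 hr. The deposited values are 1 linear intensity per probe set and array, made by the authors, and no source used here names the summary method. The trimmed mean (2% at each end) was 500.3 on each array, which shows a common scale set before deposit. Symbols came from the platform annotation: 10855 probe sets had 1, 396 several and 1237 none. A total of 9 probe sets with several symbols, at least 1 of them of the family (Prdx1 among them), were left out. The 66 control probe sets took no part in floors, filters or fits.

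Values below 54.7 were set to that floor, log2 values were taken, and the 7453 probe sets above the 40th percentile of mean log2 were fitted with a line over the hours in limma 3.58.1 (R 4.3.3; lmFit, eBayes), leaving 2 residual degrees of freedom. P-values were two-sided, adjusted over all of them by Benjamini-Hochberg, with a threshold of 0.05. They only set the slope against the scatter of 4 arrays about a line, with the variance moderated over all probe sets tested. Both the slope and that scatter may be technical. The number of arrays limits the precision. Genes were named by a fixed rule: in each list those of highest mean, those standing apart, those with the smallest p, those with several probe sets, and liver-type genes that passed. The members and lists were chosen with earlier results of these data known.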

Additional observations from a re-analysis of the deposited data

How the results depend on the processing

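Other scalings, floors, filters, time scales, variance models and each array left out were tried. Of 242 recomputed values, 2 slopes changed sign and 17 counts differed by over 1.5 times. The other 223 were slopes that kept their sign (though not always their size), counts within that range, or spreads that moved by less than the SD among members. Counts were compared without their denominators, so this tally does not measure stability of shares. Liver-type slopes above 0, at 9 of 9 in the main setting and 13 of 26 with no filter, fall among the 223. Genes with the same array highest, at 3 of 10 and 7 of 23, fall among the 17. No alternative gave a member past the adjusted threshold (smallest adjusted p of members by limma, or by least squares, 0.601 to 1). A filter at the 60th percentile left 0 members at an unadjusted p under 0.05, 0 above and 2 below the other arrays, 1 liver-type probe set, whose slope was above 0 (1 of 1), and 1 of 5 genes with the same array highest. It tests fewer probe sets. With no filter, 2 members stood above and 7 of 23 genes had the same array highest. With a floor at the 40th percentile 3 members stood below. With 1 array left out, 2 to 5 members stood above, and 1 to 5 genes had the same array highest. The brain-expressed list passed on 34 probe sets and the liver-type list on 9 in the main setting. Over the arrays left out, the slope of Cyp4b1 ran from -0.24 to 0.024 and that of an Aldh3a2 probe set from -0.19 to 0.0048, each positive without the 6 hr array; the cause was not tested. Slopes above 0 in the liver-type list numbered 7 of 8 with a floor at the 10th percentile and 13 of 26 with no filter. The passing counts have no value without a filter. No paired analysis was possible because each time has 1 array. Without detection calls, signal over background is unknown for dim probe sets.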
